A study of Mus musculus with 6 samples.

Results

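Bpifa2, Amy1, Smr3a, Dnase1, Chia1, Car6, Prol1, Prpmp5, Lpo and Cst10 are grouped here as secretory genes of the parotid gland. The grouping does not exclude that other glands make them. All 10 genes had counts in RNA from mammary epithelial cells (MECs). They were taken by symbol from the 55487 genes of the deposited count table, and the set was chosen by the share of counts these genes take in the libraries and by how their counts move together over the mice, so those values are given below as a description. Together the 10 genes took between 4.89% and 43.7% of all counts of a library, and the order of the mice was nearly the same for every gene. The libraries were made from 10-week-old female BALB/c mice, 3 wild-type (WT) and 3 IL-21isoTg, with 1 library per mouse. IL-21isoTg mice carry a transgene for a membrane-bound isoform of the cytokine IL-21 that is expressed in T cells; the promoter that drives it is not given in the sources used here. MECs of both genotypes were prepared in the same way, by digesting mammary tissue with collagenase and depleting cells that carry CD45 (leukocytes), CD31 (endothelium) or CD140a (fibroblasts), so they are an enriched suspension and not a purified cell type.

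The parotid is a serous salivary gland whose acinar cells fill granules with digestive enzymes, antibacterial proteins and proline-rich proteins and release them into saliva on nervous stimulation. These products are encoded by a small number of genes that are transcribed at very high rates, so a serous acinar cell devotes much of its mRNA to a few transcripts. Mammary alveolar cells are also secretory, but in lactation they are known for caseins and whey proteins, and of the genes described here lactoperoxidase is the one best known from milk as well as saliva.

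The stretches before the start sites of Bpifa2, Amy1 and Smr3a, which are among the 4 most counted of the genes, are printed here because these genes carry most of the parotid counts. Promoter windows were taken from RefSeq (build GRCm38.p6), which matched all 10 genes with 12 windows, and bases that the GENCODE annotation places in an exon of the gene were left off. Amy1 has a pair of RefSeq starts that lie 2988 bases apart, and mouse Amy1 is known to use a stronger upstream promoter in the parotid and a weaker downstream one in the liver; counts per gene do not show which start was used. Each sequence reads 5′ to 3′ on the strand of its gene, and capitals mark the letters TATAA on either strand. For Chia1, the other of the 4, 153 of the 250 bases before the start lie in an annotated exon, and no sequence is shown.
Bpifa2, chr2:154008026-154008264, plus strand: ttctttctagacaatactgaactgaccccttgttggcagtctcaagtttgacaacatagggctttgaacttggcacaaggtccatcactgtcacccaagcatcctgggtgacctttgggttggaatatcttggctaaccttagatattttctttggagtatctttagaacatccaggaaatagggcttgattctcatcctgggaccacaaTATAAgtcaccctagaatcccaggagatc
Amy1 upstream start, chr3:113577831-113578000, minus strand: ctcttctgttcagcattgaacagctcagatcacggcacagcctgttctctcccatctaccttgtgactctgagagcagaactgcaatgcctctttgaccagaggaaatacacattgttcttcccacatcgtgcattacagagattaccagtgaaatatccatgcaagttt
Amy1 downstream start, chr3:113574763-113575012, minus strand: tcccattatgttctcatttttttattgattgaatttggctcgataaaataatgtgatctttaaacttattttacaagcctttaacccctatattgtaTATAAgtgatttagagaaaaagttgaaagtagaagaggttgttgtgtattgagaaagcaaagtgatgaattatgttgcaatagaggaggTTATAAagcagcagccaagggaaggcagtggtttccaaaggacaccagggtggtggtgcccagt
Smr3a, chr5:88002275-88002524, plus strand: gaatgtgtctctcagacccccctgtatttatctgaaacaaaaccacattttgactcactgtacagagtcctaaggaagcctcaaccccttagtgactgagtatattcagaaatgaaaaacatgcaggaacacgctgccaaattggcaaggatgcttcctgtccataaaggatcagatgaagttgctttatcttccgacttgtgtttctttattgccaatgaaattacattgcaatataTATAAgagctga

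The letters TATAAA, searched on both strands, were found in 5 of the 12 windows of 250 bases, those of Amy1 (1 of its pair), Chia1, Dnase1 (both) and Prpmp5, and in 12.4% of all 32851 windows of this length. CAGCTG, which reads the same on both strands, was found in 1 window, that of Car6, against 13.0% of all windows. The shorter TATAA, which lies inside TATAAA and was added after the sequences had been read, was in 7 of 12 windows and 22.8% of all. In Bpifa2 it began 40 bases before the start, in Smr3a 12 bases before, and at the downstream Amy1 start 63 and 153 bases before. These matches are a description of letters in the windows and say nothing about which factors bind there.

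The depth was between 15902886 and 25719244 counts per mouse, and 3 counts, taken as the floor, correspond to 0.117 to 0.189 CPM (counts scaled to a common depth). Il21 counts were 0, 0 and 37 in WT and 795, 216 and 131 in IL-21isoTg libraries, which follows the genotype labels. IL-21isoTg mouse 3 had the fewest counts, the fewest genes with a count (20823, against 22988 to 23229 in the other mice) and the lowest TMM normalization factor (0.675, against 0.936 to 1.23), and it was the mouse with the largest share on the parotid genes. Values without this mouse are given beside the results below. Nothing in the labels says how the mice were processed in time, so a batch of preparation could not be compared.

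The summed share of the 10 genes was 26.1%, 5.79% and 17.2% of counts in WT mice 1 to 3 and 23.9%, 4.89% and 43.7% in IL-21isoTg mice 1 to 3. Exact binomial 95% intervals were at most 0.0488 percentage points wide; they cover counting error only, and reads without molecular identifiers are not independent molecules. The genotypes overlapped, with a low mouse in each: WT mouse 2 and IL-21isoTg mouse 2 were the only ones under 6%. The mean was 16.4% ± 10.2 in WT and 24.2% ± 19.4 in IL-21isoTg mice (SD, n = 3 each), and the difference between these means (IL-21isoTg minus WT) was 7.82 percentage points, or -1.94 without IL-21isoTg mouse 3. The highest mouse had 8.94 times the share of the lowest. In a bulk library, more cells of a type and more of its RNA per cell cannot be told apart.

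**Figure D1:**
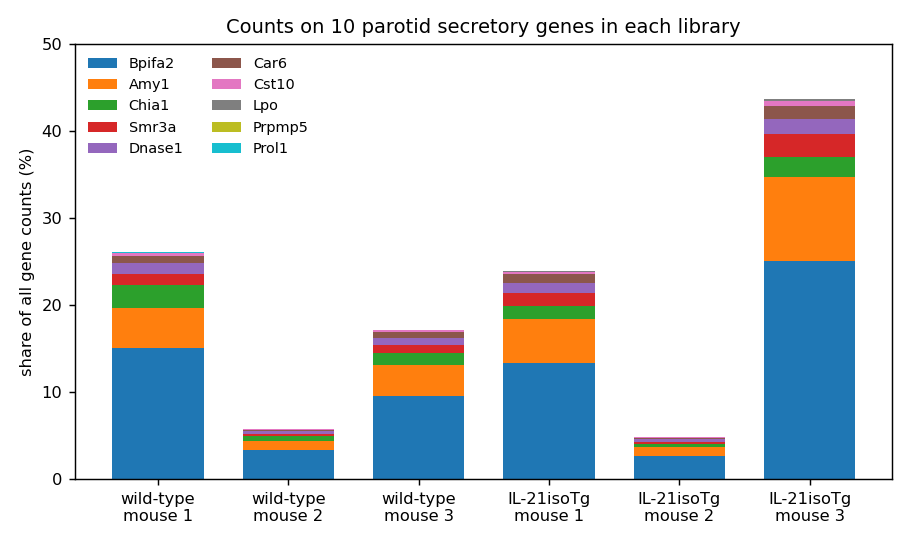
Share of all gene counts (%, bar height from 0) taken by each of the 10 parotid genes, stacked, in each of the 6 libraries. The stacks reach 26.1%, 5.79% and 17.2% in WT mice 1 to 3 and 23.9%, 4.89% and 43.7% in IL-21isoTg mice 1 to 3, and Bpifa2 is the largest block in every mouse.

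Of the antibacterial and binding proteins, Bpifa2 (ENSMUSG00000042459, chr2:154008265-154016079, plus strand), the parotid secretory protein of the BPI-fold family, which binds bacterial lipopolysaccharide, was the most counted gene of the set. It took 15.1%, 3.34% and 9.54% of counts in WT and 13.3%, 2.72% and 25.1% in IL-21isoTg mice. It held rank 1 of all genes in 5 mice and rank 2 in WT mouse 2. Per kilobase of exon it also led the set, with a mean of 57408 RPKM (reads per kilobase of exon, scaled to the depth of the library), against 17742 RPKM for Smr3a and 12069 RPKM for Amy1. The exon length joins all annotated transcripts of a gene. For Amy1 it is 3446 bases, of which 1128 are shared with Rnpc3, so the order of Smr3a and Amy1 depends on the annotation. Lpo (ENSMUSG00000009356, chr11:87806428-87828289, minus strand) encodes lactoperoxidase, which uses hydrogen peroxide to oxidize thiocyanate into an antibacterial product. Its share was far smaller, 0.0760%, 0.0268% and 0.0537% in the WT and 0.0902%, 0.0272% and 0.128% in the IL-21isoTg mice, and the ratio of its highest to its lowest share, 4.79, was the smallest among the 10 genes.

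Of the enzymes, Amy1 (ENSMUSG00000074264, chr3:113555710-113606699, minus strand), the salivary alpha-amylase that cleaves starch, took 4.53%, 1.11% and 3.63% of counts in WT and 5.07%, 1.04% and 9.58% in IL-21isoTg mice. WT mouse 2 and IL-21isoTg mouse 2 were again the low mice. Chia1 (ENSMUSG00000062778, chr3:106113229-106132120, plus strand), the acidic mammalian chitinase, took 2.60%, 0.558% and 1.39% in WT and 1.55%, 0.332% and 2.32% in IL-21isoTg mice, and was the one gene of the 10 whose highest share was in WT mouse 1 and not in IL-21isoTg mouse 3. Dnase1 (ENSMUSG00000005980, chr16:4036942-4040024, plus strand), a secreted endonuclease, ranged from 0.272% in WT mouse 2 to 1.74% in IL-21isoTg mouse 3. Car6 (ENSMUSG00000028972, chr4:150187015-150201332, minus strand), the secreted carbonic anhydrase of saliva, ranged from 0.151% in IL-21isoTg mouse 2 to 1.48% in IL-21isoTg mouse 3. These 4 genes are on 3 chromosomes, and Amy1 and Chia1, though on the same one, lie several megabases apart.

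Of the proline-rich proteins, Smr3a (ENSMUSG00000029280, chr5:88002549-88008534, plus strand) ranged from 0.213% of counts in IL-21isoTg mouse 2 to 2.68% in IL-21isoTg mouse 3, a ratio of 12.6 that was the largest of the set. Prol1 (ENSMUSG00000064156, chr5:88317312-88328814, plus strand), a mucin-like proline-rich protein that RefSeq also lists as Muc10, had 3323, 391 and 1352 counts in WT and 2480, 395 and 3002 in IL-21isoTg mice. Prpmp5 (ENSMUSG00000107874, chr6:132311590-132314757, minus strand), a member of the salivary proline-rich protein family, had 3163, 399 and 2027 counts in WT and 3726, 733 and 4008 in IL-21isoTg mice. Prol1 and Prpmp5 were the least counted of the 10 genes, at a mean of 77.6 and 89.2 RPKM, and still repeated the pattern of the most counted genes. Cst10 (ENSMUSG00000033156, chr2:149405057-149410293, plus strand), of the cystatin family of cysteine protease inhibitors, ranged from 0.0546% of counts in IL-21isoTg mouse 2 to 0.598% in IL-21isoTg mouse 3. Across the 10 genes the highest mouse exceeded the lowest by 4.79 to 12.6 times, with a median of 9.53.

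The order of the mice was nearly the same for every gene. WT mouse 2 and IL-21isoTg mouse 2 held the lowest places for all 10 genes, WT mouse 3 the fourth place for all 10, and IL-21isoTg mouse 3 the first for 9, all but Chia1. The log2 shares of any 2 genes were correlated over the 6 mice with a Pearson's r of at least 0.909, with a median of 0.984 over 45 pairs, and Spearman's rho of at least 0.771. These mice form a low pair and a higher group of 4, and all genes share the depth and the total of the library, so no p was computed. Over the 4 mice left when the low pair, the mice farthest from the median on the log2 scale, was taken out, the lowest r was 0.511.

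The proportions among the genes were followed within each library, where depth and total cancel. Bpifa2 made up 58.1%, 57.7% and 55.5% of the summed counts of the 10 genes in WT and 55.7%, 55.6% and 57.5% in IL-21isoTg mice, while the sum itself changed 8.94-fold as a share of counts. Bpifa2 exceeded Amy1 2.62 to 3.34 times in count. Against the summed counts of the other 9 genes, the standard deviation (SD) over the 6 mice of the log2 ratio was 0.07 for Bpifa2, 0.16 for Amy1, 0.17 for Car6, 0.18 for Cst10, 0.23 for Smr3a, 0.24 for Prpmp5 and Prol1, 0.30 for Dnase1, 0.38 for Chia1 and 0.39 for Lpo. The SD of the log2 share of the library, in contrast, was 0.93 to 1.46 for the same genes. Lpo and Dnase1 made up more of the parotid counts in IL-21isoTg mouse 2, the mouse with the smallest share, than in any other mouse. Lpo was 0.556% of the sum there against 0.292% to 0.462% elsewhere, and Dnase1 7.14% against 3.98% to 4.95%.

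Chia1 was the gene whose proportion separated the genotypes by the widest margin. It made up 9.99%, 9.63% and 8.07% of the summed counts in WT and 6.47%, 6.79% and 5.31% in IL-21isoTg mice. All IL-21isoTg mice were below all WT mice, also where the share of the sum was low in both genotypes (mouse 2 of each). Amy1 did not overlap either, but by a narrow margin, with 17.4%, 19.1% and 21.1% in WT and 21.2%, 21.2% and 21.9% in IL-21isoTg mice. The other 8 genes overlapped. Over all 17165 genes tested, 0.297% did not overlap between the genotypes in the ratio to the summed counts of the 10 genes. For a gene outside the set, this ratio also carries the 8.94-fold change of the sum. The 10 genes are parts of the sum, so 0.297% is not a like background for them. In TMM-normalized CPM, 12.1% of all tested genes did not overlap. Since the proportions belong to the measures by which the genes were chosen, these differences are a description with no test.

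**Figure D2:**
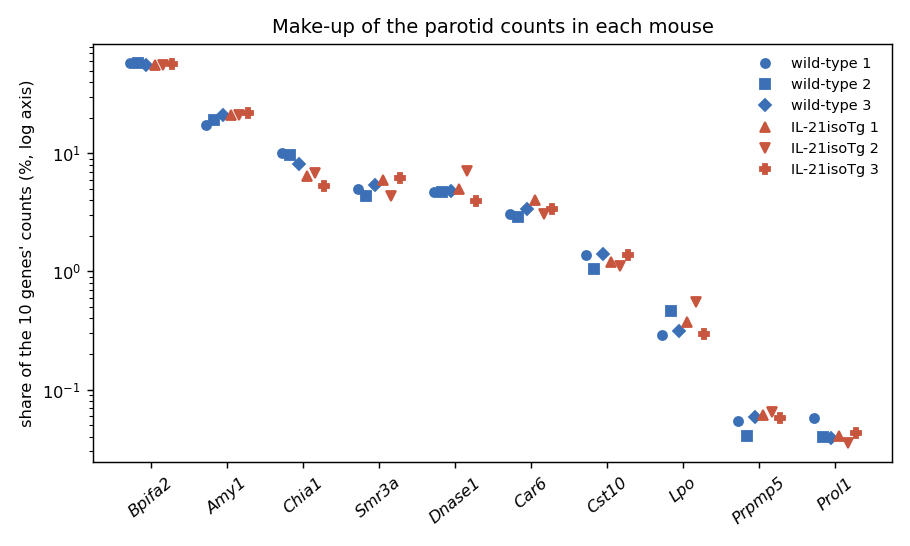
Share of the summed counts of the 10 parotid genes (%, log axis) that each gene made up, 1 point per mouse (blue, WT; red, IL-21isoTg). The points of a gene stay close together while the genes span from under 0.1% (Prol1, Prpmp5) to between 55.5% and 58.1% (Bpifa2), and for Chia1 the 3 red points lie below the 3 blue ones.

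Whether the genotypes differ in the level of these genes was tested with edgeR's quasi-likelihood test over all 17165 genes that passed the filter on low counts. All 10 parotid genes passed it. Bpifa2 was at 152287, 27330 and 86216 CPM after TMM normalization (which rescales library sizes) in the WT mice and at 142660, 23309 and 372441 CPM in the IL-21isoTg mice. The means were 88611 ± 62513 and 179470 ± 177452 CPM (SD, n = 3 each), and the high IL-21isoTg mean came from mouse 3. The log2 fold change of Bpifa2 was 1.02 with a standard error (SE) of 1.05 and an adjusted p of 0.873. Smr3a had the largest log2 fold change, 1.27 with an SE of 1.02 and an adjusted p of 0.842, from 13122, 2067 and 8356 CPM in WT and 15314, 1824 and 39676 CPM in IL-21isoTg mice. Chia1 had the smallest, 0.31 with an SE of 0.90 and an adjusted p of 0.960. For Lpo, which had the lowest p of the set, the levels were 764, 219 and 485 CPM in WT and 964, 233 and 1898 CPM in IL-21isoTg mice, with a log2 fold change of 1.08, an SE of 0.71 and an adjusted p of 0.820.

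Of the 10 genes, 0 passed an adjusted p of 0.05 (Benjamini-Hochberg), where 0% of all genes did, and 0 had an unadjusted p under 0.05, against 999 of the 17165 genes. DESeq2's Wald test, which called 72 genes higher and 8 lower, and limma-voom, which called 0, also called 0 of the 10. The point estimates were positive for all 10 genes, with a median of 1.05 on the log2 scale where the median of all tested genes was -0.02, but their SEs of 0.71 to 1.05 were about as large, and since the 10 genes move together these are not 10 separate observations. By TMM-normalized CPM the genotypes overlapped for all 10, while 12.1% of all tested genes did not overlap. Without IL-21isoTg mouse 3 the estimates ran from -0.55 (Chia1) to 0.31 (Lpo), 4 of them negative, and without WT mouse 1 from 1.09 to 1.89. The mice are the replicates. The p-values set the difference between genotypes against the spread between mice of a genotype, which edgeR estimates with information from all tested genes.

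**Figure D3:**
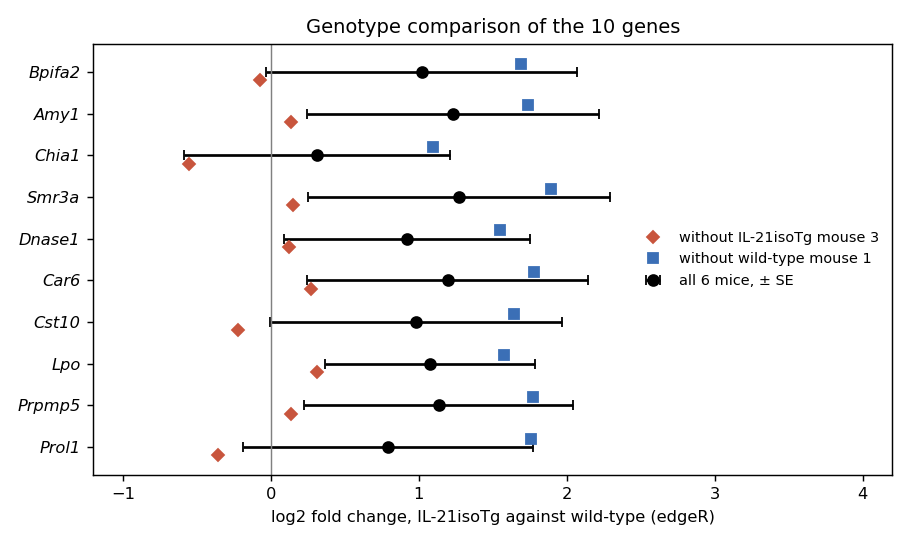
Log2 fold change of each parotid gene in IL-21isoTg against WT mice (black points with bars of 1 SE, edgeR, n = 3 each), with the estimates without IL-21isoTg mouse 3 (red diamonds) and without WT mouse 1 (blue squares). The black points lie between 0.31 and 1.27, the diamonds between -0.55 and 0.31.

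Genes outside the set that kept the same proportion to it were looked for among all tested genes by the SD over the 6 mice of the log2 ratio to the summed counts of the 10. The median SD over all tested genes was 1.61, and 1% of them had an SD under 0.76. The 10 genes themselves had SDs of 0.03 to 0.38, and 31 of the other 17155 genes, 0.181%, were at or below the highest of these. Closest was Ggh, gamma-glutamyl hydrolase, a lysosomal and secreted enzyme of folate metabolism, with an SD of 0.09. It had 21094, 3353 and 11919 counts in WT and 23751, 3864 and 27566 in IL-21isoTg mice, so Bpifa2 exceeded it 144 to 170 times in every mouse. Cldn22, a claudin of tight junctions, followed with an SD of 0.14, and 2310057J18Rik with 0.20 and 28021 to 263962 counts.

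The next in order were Ddah1, which breaks down methylated arginine, Gjb1, the gap junction protein connexin 32, the pseudogene Gm4736, the phosphatase Dusp26, Pip, the prolactin-induced protein that is secreted in saliva, and Agt, angiotensinogen, all with SDs between 0.21 and 0.24. Slc37a2, a sugar phosphate transporter, Crisp1, a cysteine-rich secretory protein, the antisense gene Gm15879, Rnase1, a secreted ribonuclease, BC024139 and the antisense gene A730032A03Rik completed the 15 closest, with SDs of 0.25 to 0.29. None of the 15 was called between the genotypes, where 0% of all tested genes were. Their log2 fold changes were 0.93 to 1.35. Values near those of the parotid genes follow from choosing the 15 by their ratio to these genes over the same mice. Gm15879 shares 504 exon bases with Dnase1 on the opposite strand, and its counts were 29.8% to 31.7% of those of Dnase1 in every mouse. How the counting treated strand is not given in the sources used here, so reads of this pair cannot be told apart.

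**Figure D4:**
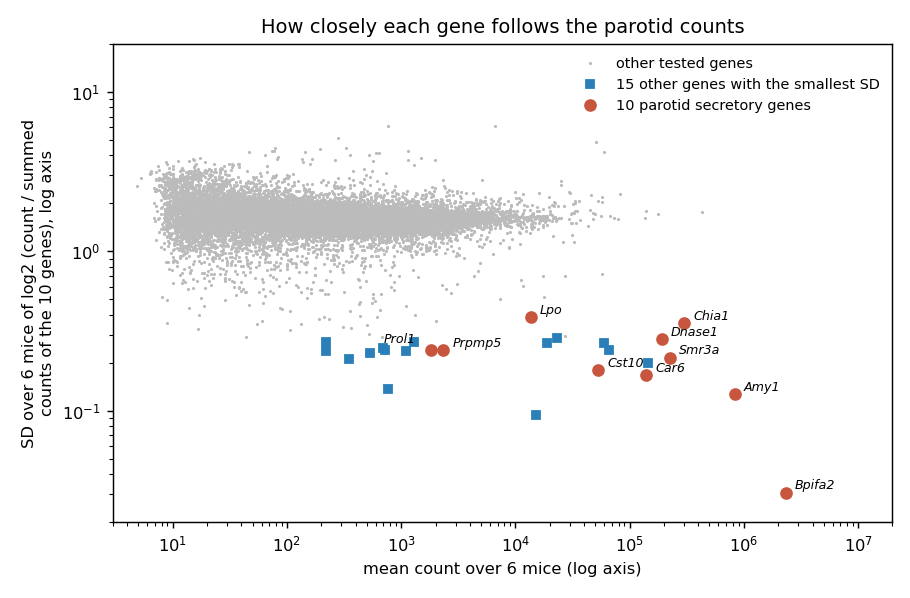
SD over the 6 mice of the log2 ratio of each gene's count to the summed counts of the 10 parotid genes (vertical, log axis) against its mean count (horizontal, log axis), for all 17165 tested genes. The 10 parotid genes (red, 0.03 to 0.38; Bpifa2 is low partly because it makes up most of the sum) and the 15 closest other genes (blue squares, 0.09 to 0.29) lie at or under the lower edge of the cloud, whose median is 1.61.

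Close relatives of the parotid genes were mostly low or followed another pattern. Of 32 relatives listed, 31 were in the count table, 7 had 0 counts in all mice and 17 were tested, with 0 called by edgeR and a median log2 fold change of 0.52, or 0.20 without IL-21isoTg mouse 3. Cst3, cystatin C, had the most counts (3909 to 7009 per mouse). Bpifb1, a relative of Bpifa2, was nearer to the parotid pattern, with an SD of 0.48 and 97 to 1026 counts per mouse. Amy2b, a close copy of Amy1 that is annotated as an unprocessed pseudogene, was the one relative at or below the highest SD of the 10 genes. It had 1 to 19 counts per mouse, and was under the floor of 3 counts in mouse 2 of both genotypes. Reads of Amy1 and Amy2b could be split by the counting, but Amy1 exceeded Amy2b 68639 times or more. Mpo, the myeloperoxidase of neutrophils, had 0 to 6 counts where Lpo had 4553 to 23193. Amy1 also shares 1128 exon bases with Rnpc3 on the same strand, which had 145 to 291 counts. Of 12 genes of pancreatic acinar cells, which also make amylase, 8 had 0 counts in all 6 mice, and Cela1 had the most (1 to 20 per mouse). Cela1 and Amy2b, which is on this list as well, were the 2 tested, with 0 called. The median log2 fold change was 0.69, and it turned to -0.08 without IL-21isoTg mouse 3 and to -0.10 with limma-voom.

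Other salivary secretory genes did not all follow. Of 10 listed, 6 were tested and 0 called by edgeR. Their median log2 fold change was 1.08, and it was -0.04 without IL-21isoTg mouse 3. Of the 6, 1 gene, Pip, was within the SDs of the 10 genes. Pip had the most counts, 82398, 12496 and 57852 in the WT and 93125, 14277 and 134502 in the IL-21isoTg mice, and Muc5b the fewest, 2 in all. Prh1, a proline-rich protein gene, had 891, 271 and 1167 counts in WT and 2011, 1528 and 3080 in IL-21isoTg mice, and an adjusted p of 0.809 in edgeR. In CPM 3 of the 6 genes did not overlap between the genotypes, Prh1 and Prp2 with higher values in IL-21isoTg mice and Mucl2 with lower ones, where 12.1% of all tested genes did not overlap. Mucl2 and Dmbt1 had another pattern than the parotid genes: Mucl2 had 6718 counts in WT mouse 2 and 6 to 112 elsewhere, and Dmbt1 10653 counts there and 50 to 427 elsewhere. Of 9 genes of the sublingual and submandibular glands, 6 were tested and 0 called by edgeR, with none within the SDs of the 10 genes. Their median log2 fold change was 0.38, and it was 0.94 without WT mouse 2 and 0.06 without IL-21isoTg mouse 3. Dcpp1, the most counted of them, was highest in WT mouse 2 (245665 counts, against 70793 to 227404 in the other mice), so the ratio of Bpifa2 to Dcpp1 ran from 2.32 to 49.6, a 21.4-fold range. Klk1, a kallikrein protease, and Egf, epidermal growth factor, were nearer to the parotid genes, with SDs of 0.70 and 0.72, and the ratio of Bpifa2 to Klk1 kept within a 2.95-fold range.

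Regulators of acinar cells and parts of the secretion machinery were tested for all 18 genes listed, with 0 called by edgeR and a median log2 fold change of 0.22, or 0.12 without IL-21isoTg mouse 3. DESeq2's Wald test called 1 of them, Xbp1, a transcription factor of secretory cells, as higher in IL-21isoTg mice. In edgeR its log2 fold change was 0.81 with an adjusted p of 0.645, its genotypes did not overlap in CPM, and its SD of 1.40 was far from those of the parotid genes. Etv1, a transcription factor, was the one within the SDs of the 10 genes, at 0.37, with 2620, 876 and 1604 counts in WT and 2994, 654 and 3471 in IL-21isoTg mice. Bhlha15, the acinar transcription factor also called Mist1, had an SD of 0.69, Kcnn4, a calcium-activated potassium channel, 0.75 and Chrm3, the muscarinic receptor that drives salivation, 0.83, all far below the median of 1.61 over all genes. Slc12a2, the sodium, potassium and chloride cotransporter, had the most counts of this list and an SD of 2.01, and Chrm1 had the fewest and an SD of 2.46. The water channel gene Aqp5 had an SD of 1.91. The list as a whole, with a median SD of 1.54, was close to all genes.

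Markers listed for mammary epithelium were present in every library and did not follow the parotid genes. Whether they tell mammary from other glandular epithelium was not tested, so their presence alone does not check the labelled cell type. The 10 luminal markers summed to 0.751% to 0.835% of counts in the WT and 0.455% to 1.07% in the IL-21isoTg mice. As a share of the counts not on the 10 parotid genes they ran from 0.676% to 1.12%. Krt8, keratin 8 of luminal cells, had the most counts (25448 to 80839), and Esr1, the estrogen receptor, the fewest (347 to 1394), and the ratio of Bpifa2 to Krt8 ran from 7.75 to 156.9. Of the 10 luminal markers 10 were tested and 0 called by edgeR, with a median log2 fold change of -0.04 that was -0.37 without IL-21isoTg mouse 2 and 0.06 without WT mouse 3. Of 6 basal markers 6 were tested and 0 called, with a median of 0.50, or 0.71 without IL-21isoTg mouse 3. Basal markers summed to 0.132% to 0.216% in the WT and 0.0981% to 0.266% in the IL-21isoTg mice, with Acta2 the most and Trp63 the least counted.

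Markers of the depleted and other cell types were counted as well. The 4 leukocyte markers, from Ptprc with the most to Adgre1 with the fewest counts, summed to at most 0.00143% of counts, with 3 tested, 0 called and a median log2 fold change of 0.04, or -0.12 without IL-21isoTg mouse 3 and -0.36 without WT mouse 2. Endothelial markers (Pecam1 the most, Kdr the least counted) summed to 0.00472% to 0.0202%, with 3 of 3 tested, 0 called and a median of 1.11, or 1.41 without IL-21isoTg mouse 3. Fibroblast markers (Col1a1 the most, Pdgfra the least counted) summed to 0.128% to 0.313%, with 4 of 4 tested, 0 called and a median of 0.71, or 0.79 without that mouse. Adipocyte markers (Fabp4 the most, Adipoq the least counted) summed to 0.00199% to 0.0164%, with 2 of 3 tested, 0 called and a median of 1.54, or 2.26 without it. As a share of the counts not on the parotid genes, the endothelial, fibroblast and adipocyte sums of IL-21isoTg mouse 3 (0.00919%, 0.317% and 0.00353%) lay within the range of the other 5 mice, and its leukocyte sum (0.00200%) was the highest of the 6. Over the 11 lists, 76 genes were tested, of which edgeR called 0, DESeq2 2 (Xbp1 and Col1a1), and 13 had an unadjusted p under 0.05 in edgeR. The part of any of these cells in the parotid counts was not tested.

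**Figure D5:**
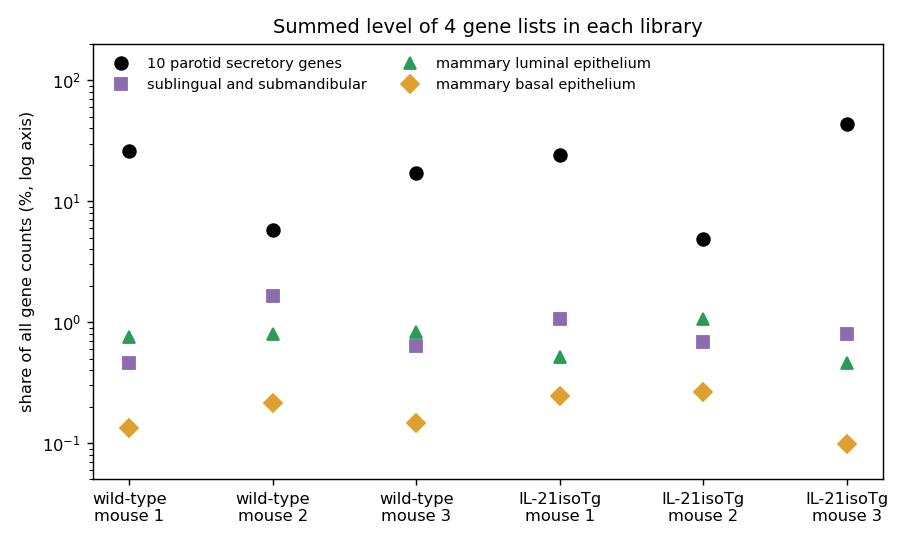
Share of all gene counts (%, log axis) of the summed 10 parotid genes (circles), 9 sublingual and submandibular genes (squares), 10 mammary luminal markers (triangles) and 6 mammary basal markers (diamonds) in each library. The circles move between 4.89% and 43.7%, while the squares are highest in WT mouse 2 at 1.64% and the triangles stay between 0.455% and 1.07%.

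The 10 genes lie on 7 chromosomes, and their neighbours mostly did not share their pattern. Within 200000 bases of a parotid gene lie 137 other genes of the count table, of which 48 had 0 counts in all mice and 41 were tested with at least 100 counts in all. Of these 41, 3 were within the SDs of the 10 genes: Gm15879 beside Dnase1, Slc2a5, a fructose transporter beside Car6, and the pseudogene Gm4736 in the proline-rich protein cluster beside Prpmp5. In that cluster on chromosome 6, Gm5154, Prb1 and Gm8882 had SDs of 0.52, 0.62 and 0.57. How reads that match several genes were counted is not given in the sources used here. Genes of this cluster, Prpmp5 among them, may therefore share reads. Smr3a lies 69884 bases from Csn3, the kappa-casein gene, which had 7621, 8915 and 8806 counts in WT and 35085, 61486 and 10762 in IL-21isoTg mice and an SD of 2.01, so it did not follow its neighbour. The antisense gene 1700066N21Rik, most of which lies between them, and the noncoding BC037156, on the other side of Csn3, were nearer to the parotid pattern, with SDs of 0.70 and 0.72 and 32531 to 83999 counts for BC037156. This pair overlaps on opposite strands, and reads of one may be counted on the other.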

How the data were processed

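RNA from MECs of 3 WT and 3 IL-21isoTg mice was sequenced from poly(A)-selected, directional libraries with paired-end reads, 1 library per mouse. The deposited counts are whole numbers of reads per gene without normalization. Per the labels, the authors' processing notes list Trimmomatic 0.38, HISAT2 2.1.0, SAMtools 1.9, featureCounts 1.6.3 and DESeq2 1.24.0 and the build mm10; strand and multiple-mapping settings are not given in the sources used here. A deposited table of counts divided by size factors and a table of the authors' own genotype comparison (fold changes and p-values) were not used. 0 columns of samples were left out.

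Genes were filtered with filterByExpr (minimum count 10, minimum total 15), normalized with TMM and compared with edgeR 4.0.16 (quasi-likelihood test, robust, genotype as the only term, R 4.3.3), with Benjamini-Hochberg adjustment over all tested genes. Ratios used a pseudocount of 0.5 counts, and log2 CPM in an alternative a prior count of 2. Positions are from GENCODE M21 (GRCm38), which holds 55141 of the 55487 identifiers. Alternatives were DESeq2 1.42.0, limma-voom (limma 3.58.1), other normalizations and filters, a replicate block, and fits without each mouse in turn. The edgeR step was tested before use on simulated counts with the same dispersion for every gene and large changes. That test does not show how the step performs for the parotid genes, which vary widely between mice and move together. The parotid genes and all lists were chosen with earlier results of these data known. Genes named are the 10 parotid genes, the 15 others most proportional to them, the most and least counted gene of each of 11 lists and any called, and Il21; other genes named for their values (list members, relatives and neighbours) were chosen after these were seen.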

Additional observations from a re-analysis of the deposited data

How the results depend on the processing

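The 10 parotid genes had 0 calls under each of the 14 alternative fits. Calls over all genes were 0 except without a filter on low counts (14 higher, 0 lower), with DESeq2's Wald test (72 higher and 8 lower, among them 2 genes of the lists, Xbp1 and Col1a1, both higher) and without WT mouse 3 (6 higher), so that leaving out a mouse gave 0 to 6 calls; the cause was not tested. The point estimates kept their sign in 135 of 140 refits. Those that changed sign did so when a mouse was left out, with log2 fold changes from -0.55 to 1.09 for Chia1 (negative without IL-21isoTg mouse 3 and, at -0.11, without WT mouse 2), from -0.072 to 1.69 for Bpifa2, from -0.35 to 1.76 for Prol1 and from -0.22 to 1.64 for Cst10 (all negative without IL-21isoTg mouse 3). Both genotypes have mice labelled 1 to 3, and the labels do not say whether the numbers pair them. Over all tested genes, deviations of same-numbered mice from the mean of their genotype correlated at -0.22, 0.07 and -0.06. Those of differently numbered mice correlated at -0.23 to 0.23. For the 10 genes, mouse 2 was low in both genotypes. These values cannot decide whether the mice were paired. With the replicate number as a block 0 genes were called, and the 10 estimates ran from 0.01 to 0.88. Their SEs were 0.39 (Prpmp5) to 0.89 (Bpifa2), against 0.71 to 1.05 without the block. Medians of 3 lists moved by more than the spread between mice when a mouse was left out: other salivary genes to -0.04 (IL-21isoTg mouse 3), sublingual and submandibular genes to 0.94 (WT mouse 2) and luminal markers to -0.37 (IL-21isoTg mouse 2). The difference in mean share between genotypes ran from -1.94 to 17.5 percentage points as each mouse was left out. The median SD of the ratios among the 10 genes was 0.19 to 0.26, and 10 to 13 of the 15 most proportional genes were kept. The comparisons rest on 3 mice per genotype with an 8.94-fold range of shares, and the part of depth in this spread was not tested.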

Other observations

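Beyond the 15 closest genes, 16 more genes outside the set were within the SDs of the 10 parotid genes, named here after their values were seen. Among them were Wfdc12, a WAP-domain protease inhibitor, with 28023, 7927 and 28504 counts in the WT and 42113, 6636 and 49758 in the IL-21isoTg mice and an SD of 0.29, the secretoglobin Scgb2b27 (0.29), the glycosyltransferase B4galnt3 (0.30), the pantetheinase Vnn1 (0.32), the proline-rich protein pseudogene Prb3-ps (0.33) and Cracr2a, a regulator of calcium entry (0.35). The antisense gene A730032A03Rik, among the 15 closest, had counts that ran parallel to those of Wfdc12. They were 23831, 6696 and 24050 in the WT and 35254, 5697 and 42531 in the IL-21isoTg mice. Whether A730032A03Rik and Wfdc12 share reads was not tested, so they may not be separate observations. Ranked instead by Pearson's r of log2 CPM with the mean of the parotid genes, 11 of the 15 closest genes were kept.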
